A study of Mus musculus with 13 samples.

Results

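Treg “wannabes” are CD4 T cells that switch on the *Foxp3* locus but make no Foxp3 protein, and activated “wannabes” from mice without Treg cells were compared here with resting “wannabes” from mice that kept them. The comparison takes every gene with enough counts to test, 13166 of the 24417 named genes, in 5 of the 13 bulk RNA-seq libraries of the series. All 5 came from adult C57BL/6 females that are heterozygous for *Foxp3*, an X-linked gene, so that each of their T cells uses either allele. In every mouse the first allele is Foxp3LSL, in which a Thy1.1 reporter and a STOP cassette between loxP sites stand before a GFP-tagged *Foxp3*, so that Thy1.1 marks the “wannabes”. The second allele differs between the groups. By the labels of the samples, the 3 resting libraries came from Foxp3LSL/WTCd4wt mice, whose wild-type allele gives functional Treg cells, and the 2 activated libraries came from Foxp3LSL/DTRCd4wt mice, whose Treg cells carry the diphtheria toxin (DT) receptor. The design text of the series gives 3 replicates to the activated and 2 to the resting group, and the sample labels, the headers of the columns and the study's methods were followed. Both groups received DT 7, 5, 3 and 1 days before analysis and carried no Cre recombinase, and the mice were 9 to 11 weeks old. The toxin removes the Treg cells of the Foxp3LSL/DTRCd4wt mice, which then become sick. Cells were sorted from pooled spleen and lymph nodes as Thy1.1+Foxp3- cells among TCRβ+CD4+ T cells without CD8 and NK1.1. The loss of Treg cells, the disease that follows it and the second *Foxp3* allele change together between the groups and cannot be told apart.

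The libraries held 28061669 to 29075913 counts in the resting and 31351030 and 31464218 in the activated group, with 15855 to 16150 genes detected in each. The first principal component of log2 CPM, which scales counts to the library size, took 69.4% of the variance and separated the groups. Replicates differed by more than sampling noise, so none was a library deposited again. The study's methods give 3 resting and 2 activated mice, as many as there are libraries. Values below are counts normalized by the trimmed mean of M-values (TMM) and listed in the order of the replicate numbers, and a gene was called where edgeR's quasi-likelihood test gave an adjusted p under 0.05. In bulk libraries, a change in the level of a gene per cell and a change in the share of cells that use it cannot be told apart.

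The genes that define the sort are given first. Counts of *Thy1* do not separate the Thy1.1 of the cassette from the cells' own *Thy1*, so they cannot check the Thy1.1 gate. *Thy1* counted 5529.5, 6579.9 and 5794 against 5215 and 5935, and the difference did not pass the test (log2 fold change −0.10, adjusted p = 0.533 by edgeR). *Foxp3*, whose locus is transcribed in these cells, counted 2073, 1999 and 2229.7 against 1568 and 1728, and *Cd4* 26326, 28418 and 28070.3 against 25341 and 25636. The *Foxp3* levels of the groups did not overlap, and the fall by 0.35 on the log2 scale passed the test (adjusted p = 0.0448 by edgeR), but not without resting replicate 1 or 3 or either activated library (adjusted p between 0.0811 and 0.262). *Cd8a*, which the gate excludes, counted between 1.91 and 16.1. *Cd8b1*, of the second CD8 chain, counted 326, 281 and 405 against 456 and 421, with no overlap between the groups, and did not pass the test (log2 fold change 0.38, adjusted p = 0.194 by edgeR). *Klrb1c*, the gene of NK1.1, counted 53.6, 76.4 and 43.6 against 63.3 and 98.3 and overlapped between the groups. Of the 13 gate and T cell genes tested, 1 rose and 4 fell (0 and 1 without activated replicate 1 or 2, by edgeR). Other cell types were followed with 5 marker lists. The summed level of 16 B and plasma cell markers ran from 1487 to 2509.7 in the resting and from 2267 to 2344 in the activated libraries, and the defining genes *Ms4a1* and *Pax5* stayed at 12.6 or below in every library (2 of 9 tested rose and 2 fell). The rises were those of *Cd22*, given below, and *Cd79b*, of the B cell receptor, which counted 259, 261 and 223 against 650.2 and 602 (log2 fold change 1.34, standard error 0.15, adjusted p = 0.00193 by edgeR). *Cd79a*, its partner, counted 71.5, 69.3 and 58.2 against 72.8 and 59.2 and overlapped. The 19 monocyte, macrophage and dendritic cell markers summed to 228.2 to 365.7 in the resting and 830.7 to 871.6 in the activated libraries, with 9 tested and 1 called, *Ly6c2* (72.6, 61.2 and 96.6 against 297 and 401). The 1 call is 11.1% of those tested, beside 11.3% of all genes called higher. All 9 had a log2 fold change above 0 (median 1.245), and 3 were called without resting replicate 2. The groups did not overlap in 6 of the 9, beside 56.51% of all genes tested. *Lyz2*, of macrophages, counted 14.7, 43.8 and 21.8 against 69.9 and 52.5, with no overlap, and did not pass the test (adjusted p = 0.141, and 0.0411 without resting replicate 2, by edgeR). The 19 markers of granulocytes, mast cells and basophils summed to between 72.6 and 164.2, with *S100a8* and *S100a9* at 2.08 or below and 1 of 2 tested higher. The 11 markers of NK, CD8 and γδ T cells summed to between 544.2 and 776.1 in the resting and 956.4 and 1124.5 in the activated libraries, with *Ncr1* at 2.86 or below and 1 of 4 tested higher. Of the 17 erythroid, platelet and stromal genes 0 were called by edgeR among the 6 tested, and *Hba-a1* and *Hbb-bs*, of red cells, stood at 279.5 and 200.5 in resting replicate 3 and at 6.68 or below elsewhere. The part of such cells in the results was not tested.

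T cells that are stimulated leave a resting state: they divide, change the receptors that steer their traffic and make the effector molecules of a helper type. Treg cells hold this in check in other T cells. “Wannabes” carry T cell receptors that would have belonged to Treg cells but lack the factor that gives Treg cells their suppressor program. The comparison asks what these cells express once the Treg cells around them are gone.

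Of the 13166 genes tested, 2958 (22.5%) were called, 1489 higher (11.3%) and 1469 lower (11.2%) in activated “wannabes”. A rise of more than 2-fold was called for 751 genes, more than 4-fold for 396 and more than 8-fold for 188, and falls of these sizes for 462, 211 and 120. The levels of 7440 genes (56.51%) did not overlap between the groups. The median log2 fold change of all genes tested was −0.01. With activated replicate 1 or 2 left out, a single library remained in that group, which was assumed to vary like the resting group, and 751 or 797 genes were called in place of 2958. Of 57 lists with a call, the count moved by more than 1.5 times in 45 without activated replicate 1, in 45 without activated replicate 2 and in 12, 7 and 4 without resting replicate 1, 2 and 3, so that the counts of calls in the lists below depend on single libraries, most often the activated. The count of each list is read against the shares of all genes, 11.3% for rises and 11.2% for falls. In 19 of 58 lists neither share reached 2 times that of all genes. They include the B cell, myeloid and erythroid markers and the antiviral, Runx, TNF receptor, T cell receptor complex, NF-κB, p53 and BCL-2 lists. The rest are the Id, E and Ikaros, stress response, amino acid transporter, metalloprotease, lipid droplet, sterol synthesis, respiratory chain, ribosomal protein and ribosome biogenesis lists. Genes named below as changed were called in all 5 fits that left out a library, except where another adjusted p is given, and those that lost their call in a fit over all 13 libraries are named further on.

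*Bub1b*, a kinase of the spindle checkpoint, counted 399, 375 and 359 in the resting and 2884 and 3016 in the activated libraries (log2 fold change 2.96, standard error 0.10, adjusted p = 0.000157 by edgeR). *Ifitm2*, a membrane protein that blocks the entry of viruses, counted 61.0, 66.2 and 45.7 in the resting and 3985 and 4114 in the activated libraries (log2 fold change 6.13, standard error 0.16, adjusted p = 6.28e-05 by edgeR). Replicates lay close together for both genes, and the groups stood far apart. *Gzma*, a granule protease of cytotoxic cells, counted 5.26, 9.17 and 6.23 in the resting and 897 and 659.6 in the activated libraries (log2 fold change 6.79, standard error 0.28, adjusted p = 0.000249 by edgeR). *Bace2*, an aspartic protease that cuts membrane proteins, counted 0, 1.02 and 0 in the resting and 469.7 and 465 in the activated libraries. The resting value rests on 1 read count in 1 library, and the ratio of activated to resting was 1353 (95% exact interval of the counts 242.2 to 5.348e+04, counting error only). *Plin2*, a protein of the surface of lipid droplets, went the other way, with 2297, 2738 and 2611 in the resting and 368 and 361 in the activated libraries (log2 fold change −2.81, standard error 0.12, adjusted p = 0.000249 by edgeR).

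**Figure D1:**
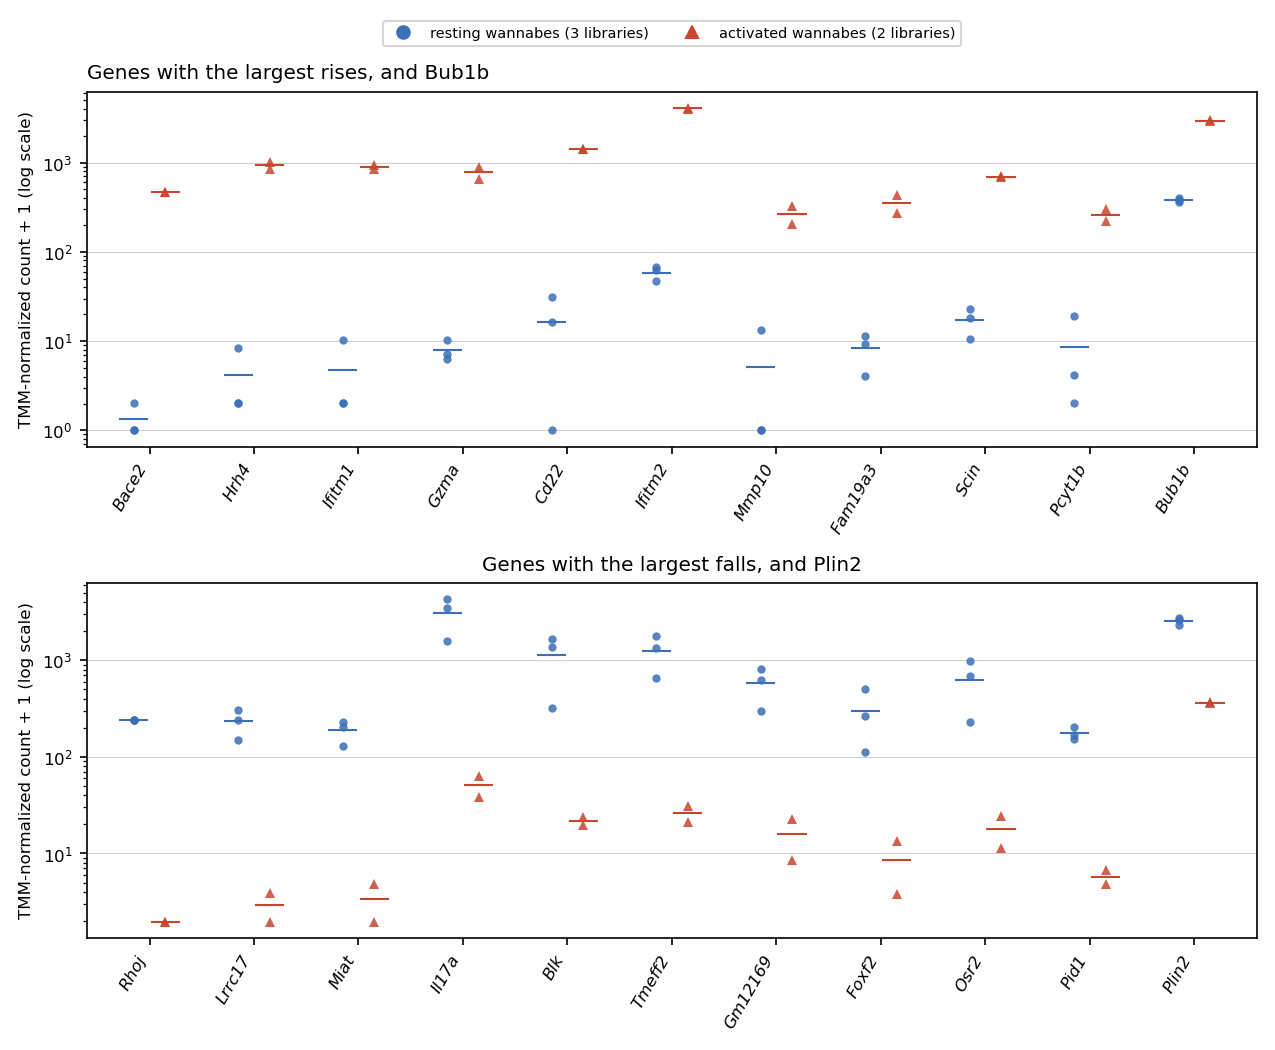
TMM-normalized count plus 1 (log axis) of the genes with the largest rises and *Bub1b* (upper panel) and of those with the largest falls and *Plin2* (lower panel), with 1 point for each resting (circle) and activated (triangle) library and a line at each group's mean. The largest rises and falls were taken only from called genes without overlap, so the separation of their groups follows from that choice. *Bub1b* goes from 359 to 399 in the resting to 2884 and 3016 in the activated libraries.

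Among called genes with a mean over 100 and no overlap, the largest rises also took in a receptor, a lectin and enzymes. *Hrh4*, the histamine H4 receptor, counted 7.36, 1.02 and 1.04 in the resting and 848 and 1019 in the activated libraries (log2 fold change 8.17, standard error 0.46, adjusted p = 0.000288 by edgeR). *Ifitm1*, of the same family as *Ifitm2*, counted 1.05, 1.02 and 9.35 in the resting and 846 and 948 in the activated libraries (log2 fold change 7.84, standard error 0.51, adjusted p = 0.000454 by edgeR). *Cd22*, a sialic acid-binding lectin best known from B cells, counted 0, 30.6 and 15.6 in the resting and 1414 and 1415 in the activated libraries (log2 fold change 6.50, standard error 0.67, adjusted p = 0.00153 by edgeR). The level of *Ms4a1*, a defining B cell gene, is given above. *Scin*, an actin-severing protein, counted 9.47, 17.3 and 21.8 against 684 and 701 and *Fam19a3*, a secreted chemokine-like protein, 10.5, 3.06 and 8.31 against 270.3 and 433. *Mmp10*, a matrix metalloprotease, counted 0, 12.2 and 0 against 325 and 206 (adjusted p = 0.00742, and 0.0740 without activated replicate 1, by edgeR) and *Pcyt1b*, of phosphatidylcholine synthesis, 3.16, 18.3 and 1.04 against 219 and 302 (adjusted p = 0.00566, and 0.0566 without activated replicate 2, by edgeR). Without resting replicate 2, *Mmp10* was at 0 in the resting group and at least 84.7-fold higher in the activated, and the log2 fold change of *Pcyt1b* was 6.88 in place of 5.08. In genes with few counts in the resting group the size of the change depended on a single library: the log2 fold change of *Hrh4* was 9.67 without resting replicate 1, that of *Cd22* 7.47 without resting replicate 2, and that of *Ifitm1* 9.60 without resting replicate 3. Without resting replicate 2, *Bace2* was at 0 in the resting group and at least 149-fold higher in the activated, taking 3 counts per library as the floor.

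The largest falls, taken by the same rule, are given next. *Rhoj*, a small GTPase, counted 242, 242 and 239 in the resting and 0.945 and 0.955 in the activated libraries, which is 2 counts in all in the activated group, and the ratio of resting to activated was 253.5 (95% exact interval of the counts 69.92 to 2098). *Lrrc17*, a secreted leucine-rich repeat protein, counted 307, 239.5 and 149 against 0.945 and 2.86, and the long noncoding RNA *Miat* 228, 203 and 129 against 0.945 and 3.82. *Tmeff2*, a membrane protein with follistatin-like domains, counted 1333, 1794 and 651 against 30.2 and 20.05 and *Pid1*, an adaptor protein, 169, 201 and 154 against 5.67 and 3.82. The predicted gene *Gm12169* counted 628, 804 and 296 against 7.56 and 22.0, and reads that it may share with a related copy were not separated. *Il17a* is given with the type 17 genes below. The kinase *Blk* counted 1676, 1373 and 318 against 18.9 and 22.9, the transcription factor *Osr2* 681, 974 and 229 against 23.6 and 10.5 and the transcription factor *Foxf2* 509, 263 and 111 against 2.84 and 12.4, each lowest within the resting group in replicate 3. These 3 passed the test over all libraries, but without activated replicate 1 or 2 the adjusted p by edgeR was 0.0730 or 0.0684 for *Blk*, 0.0533 or 0.0684 for *Osr2* and 0.0886 or 0.0588 for *Foxf2*. The log2 fold change of *Osr2* was −5.19, and −5.89 without activated replicate 1. That of *Foxf2* was −5.25, and it was −4.59 without resting replicate 1, −4.56 without activated replicate 1 and −6.65 without activated replicate 2. Without activated replicate 2, the log2 fold change of *Lrrc17* was −7.77 in place of −6.84 and that of *Gm12169* −6.24 in place of −5.28. That of *Miat* was −6.22 over all libraries, and −5.57 and −7.46 without activated replicate 1 and 2.

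Genes of cell division rose almost without exception. Proteins that copy DNA are made before and during S phase under the control of E2F factors, and those that build the spindle and part the chromosomes are made later through promoters with CCAAT and CHR elements. Promoters of *Bub1b*, *Cdk1* and *Mcm5* are shown because these genes stand for the mitotic kinases and for the helicase that opens replication origins. Each is a window of 300 bases from RefSeq (GRCm38.p6), 5′ to 3′ on the gene's strand, with the transcription start of RefSeq 50 bases before the end. The last 20 bases stood in a GENCODE transcript of the gene for *Bub1b* and *Cdk1*, but not for *Mcm5*. Capitals mark matches on either strand to CCAAT, to TTTGAA (CHR) and to TTTGGCGC, TTTCGCGC or GGCGGGAA (E2F), of which the last 3 can overlap, as they do in *Mcm5*.
Bub1b (chr2:118597961-118598260, plus strand): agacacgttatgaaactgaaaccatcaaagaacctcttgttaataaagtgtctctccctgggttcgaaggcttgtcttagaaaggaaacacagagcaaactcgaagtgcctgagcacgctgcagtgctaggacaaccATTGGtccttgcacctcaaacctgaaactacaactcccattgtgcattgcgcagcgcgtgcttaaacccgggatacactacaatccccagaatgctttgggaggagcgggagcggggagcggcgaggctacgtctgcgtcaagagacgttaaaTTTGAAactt
Cdk1 (chr10:69352863-69353162, minus strand): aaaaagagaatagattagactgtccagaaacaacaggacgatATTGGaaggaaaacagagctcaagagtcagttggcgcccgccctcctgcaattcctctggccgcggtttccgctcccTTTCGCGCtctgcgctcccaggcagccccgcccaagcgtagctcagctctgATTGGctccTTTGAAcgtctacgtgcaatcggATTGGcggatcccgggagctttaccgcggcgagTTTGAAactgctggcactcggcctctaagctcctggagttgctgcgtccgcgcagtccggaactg
Mcm5 (chr8:75109259-75109558, plus strand): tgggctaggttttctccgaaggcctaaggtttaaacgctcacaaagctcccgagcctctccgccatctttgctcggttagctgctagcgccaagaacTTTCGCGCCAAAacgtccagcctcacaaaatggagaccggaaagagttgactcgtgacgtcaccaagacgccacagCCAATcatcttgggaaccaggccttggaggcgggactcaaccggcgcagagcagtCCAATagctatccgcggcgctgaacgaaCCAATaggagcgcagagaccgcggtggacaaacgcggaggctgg
The *Bub1b* window held 1 CCAAT and 1 CHR match, that of *Cdk1* 3 CCAAT, 2 CHR and 1 E2F matches, and that of *Mcm5* 3 CCAAT and 2 overlapping E2F matches and 0 CHR matches. A window was found for 69 of the 84 mitotic and 52 of the 64 S phase genes tested. TTTGAA stood in 50 of 76 windows of mitotic genes (65.8%), in 7 of 59 of S phase genes (11.9%) and in 5878 of all 32851 windows (17.9%). CCAAT and TTTGAA stood together in 38 of the 76 mitotic windows, against 6.95% of all windows. An E2F word stood in 21 S phase windows (35.6%), in 9.21% of mitotic windows and in 2.96% of all. These are matches of letters and show no binding.

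Of 84 genes of mitosis and G2/M tested, 81 rose and 0 fell (median log2 fold change 2.704, against −0.01 for all genes). *Cdk1*, the kinase that starts mitosis, counted 205, 282 and 156 in the resting and 1408 and 1502 in the activated libraries (log2 fold change 2.76, standard error 0.24, adjusted p = 0.000871 by edgeR). *Ccnb1*, its cyclin partner, counted 286, 271 and 122 against 2249 and 2111 and *Kif2c*, a kinesin that takes apart microtubule ends, 164, 142 and 74.8 against 1594 and 1503. *Knl1*, of the kinetochore, counted 106, 137 and 148 against 1415 and 1344, *Ube2c*, which helps to destroy cyclins, 151, 173 and 100.8 against 1730.5 and 1559, and *Mki67*, the gene of the proliferation marker Ki67, 997, 1246 and 712 against 4377 and 4373. All activated libraries lay above all resting libraries in these genes. *Espl1*, the protease that cuts cohesin, counted 70.5, 198 and 51.9 against 1457 and 1240.1, and its log2 fold change went from 3.66 to 4.46 without resting replicate 2. Of the mitotic genes, 73 and 74 rose without activated replicate 1 and 2.

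Of 64 genes of DNA replication and S phase tested, 61 rose and 0 fell, with a lower median (1.21) than the mitotic genes. *Mcm5*, of the replicative helicase, counted 2647, 3252 and 2898 in the resting and 7028 and 8396 in the activated libraries (log2 fold change 1.39, standard error 0.12, adjusted p = 0.000868 by edgeR). *Pcna*, the sliding clamp of the polymerases, counted 3079.8, 3465 and 3182 against 4911 and 4909 and rose by 0.60 on the log2 scale. *Cdc6*, which loads the helicase, counted 277, 481 and 376 against 1818 and 1878 and *Rrm2*, which makes deoxynucleotides, 1928, 2927 and 1605 against 12166 and 13605. The checkpoint adaptor *Clspn* counted 64.2, 67.3 and 20.8 against 592 and 446, the repressor *E2f8* 122, 206 and 108 against 1101 and 1445 and the nuclease and helicase *Dna2* 94.7, 135 and 141 against 1119.9 and 789. The largest rise of the list was that of *Clspn*, at a log2 fold change of 3.35. Without activated replicate 1 or 2, 46 rose in either fit.

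A list of CDK inhibitors, pocket proteins and quiescence genes also held D cyclins and CDKs, which drive the cycle. Of its 22 genes tested, 7 rose and 8 fell, a count that mixes brakes with drivers. Brakes among its members changed in both directions. *Cdkn1a*, the CDK inhibitor p21, counted 84.1, 137 and 83.1 against 402 and 432 and rose by 2.04 on the log2 scale. *Rb1*, which holds E2F factors, counted 6514, 7361 and 5062 against 2726 and 2699.7, and the antiproliferative genes *Btg1* and *Tob2* counted 69496, 69259 and 71704 against 31372 and 38018 and 6859, 7279 and 7049.5 against 4107 and 3874. These 3 fell in all fits. Replication-dependent histones, whose mRNAs lack a poly(A) tail and are caught poorly by an oligo(dT)-primed protocol, had 16 rises and 3 falls among 47 tested (8 or 9 and 0 without activated replicate 1 or 2). *Hist1h2ap* counted 266, 409 and 341 against 2975 and 2573 and *Hist1h1b* 45.2, 28.5 and 30.1 against 419 and 396, and reads shared between near-identical histone genes may be split uncertainly. Of 14 tubulins and stathmins 5 rose and 3 fell (3 and 0, and 2 and 2, without activated replicate 1 and 2, by edgeR), led by *Stmn1*, which destabilizes microtubules, with 889, 1138 and 876 against 5278 and 5125. *Ezh2* and *Uhrf1*, which keep histone and DNA methylation through division, counted 1542, 1573 and 1521 against 3252 and 3107 and 829, 1129 and 818 against 3495 and 3472, and *Rnf2*, a Polycomb ubiquitin ligase, fell from 4975, 4451 and 5267 to 2585 and 2782. Their list of 21 DNA methylation and Polycomb genes had 6 rises and 2 falls (3 and 1, and 2 and 1, without activated replicate 1 and 2).

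**Figure D2:**
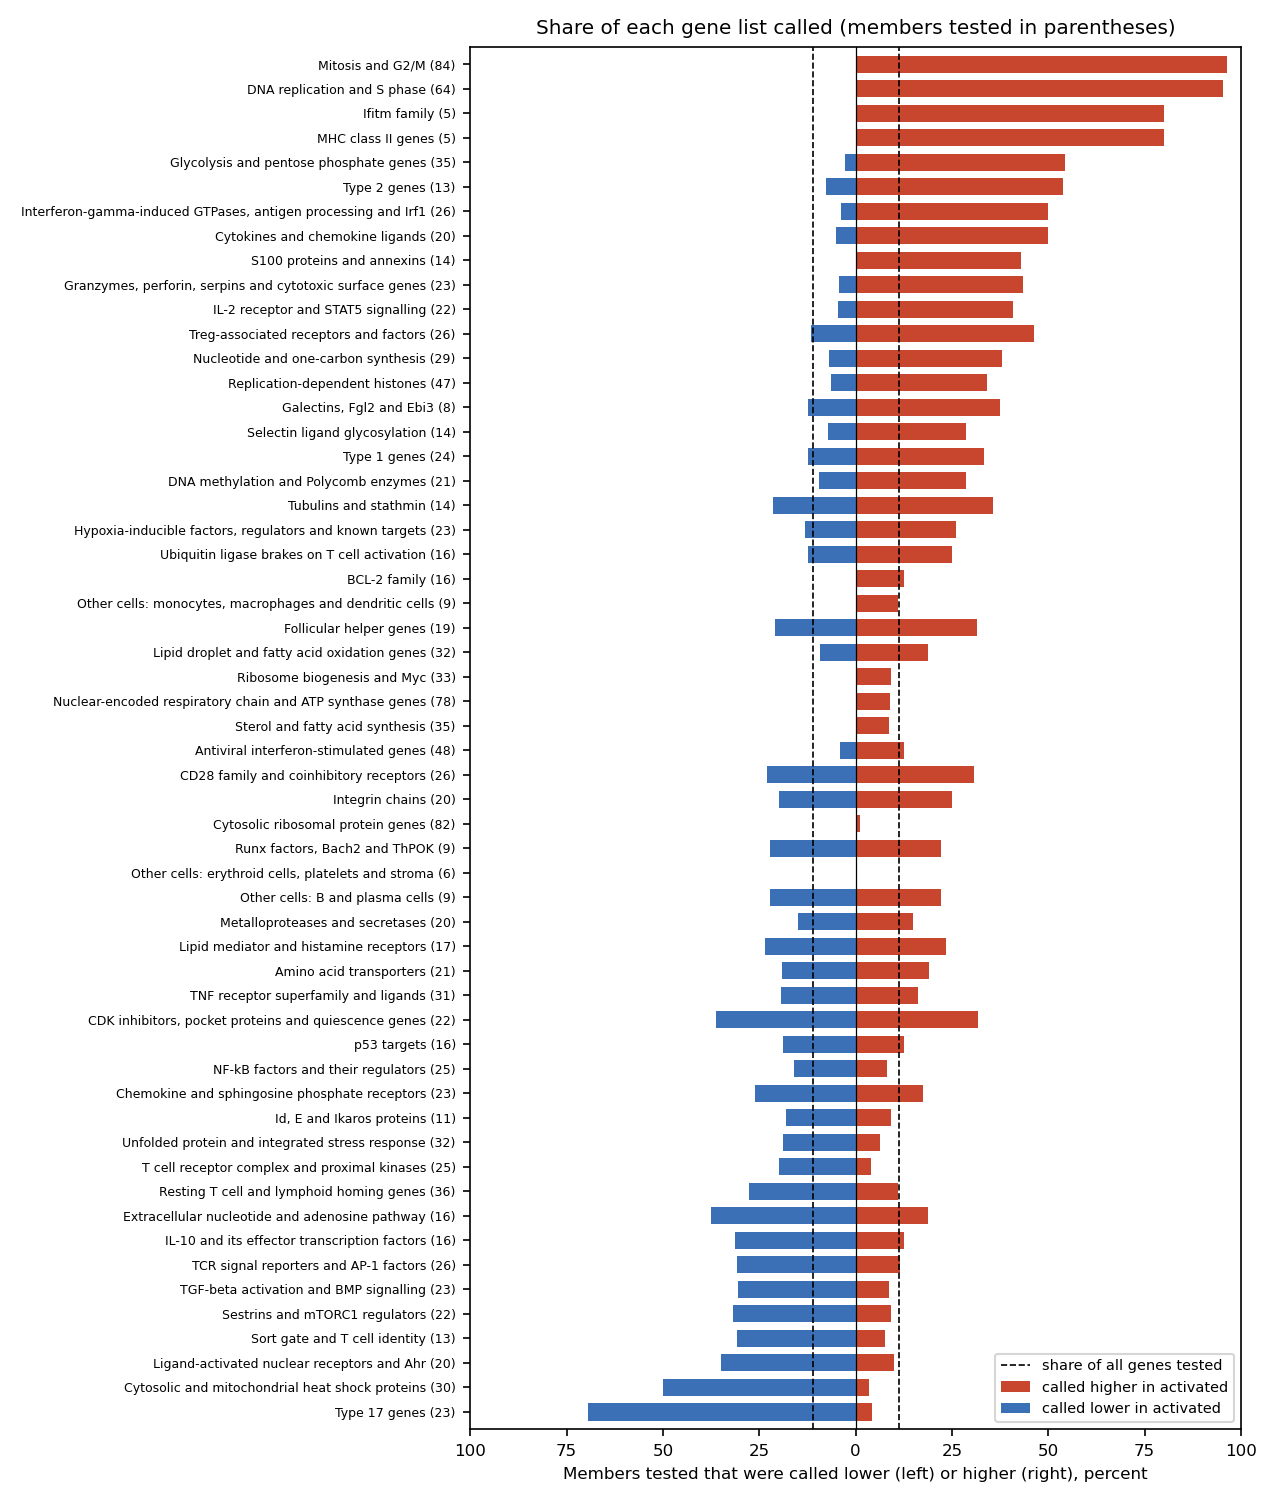
Share of the members tested that were called higher (red, to the right) or lower (blue, to the left) in activated “wannabes”, in percent, for the gene lists with at least 5 members tested, with dashed lines at the shares of all genes tested (11.3% and 11.2%). Mitosis and S phase stand at the higher end with 81 of 84 and 61 of 64 members called, and type 17 genes at the lower end with 16 of 23.

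Most type 17 genes fell. Type 17 helper cells make IL-17 and guard mucosal surfaces. Of 23 type 17 genes tested, 16 fell and 1 rose (median log2 fold change −2.14), and 8 and 7 fell without activated replicate 1 and 2. *Il17a* counted 3457, 4263 and 1594 in the resting and 37.8 and 62.1 in the activated libraries (log2 fold change −5.96, standard error 0.55, adjusted p = 0.00113 by edgeR) and *Il17f* 3576, 3778 and 1982 against 75.6 and 115. *Ccl20*, the ligand of CCR6, counted 7092, 12006 and 4715 against 345 and 500.2 and *Il21*, a cytokine of helper cells, 2602, 3254 and 1836 against 382 and 389. *Il23r*, through which IL-23 sustains these cells, counted 1380.0, 1834 and 679 against 25.5 and 74.5, with a log2 fold change of −4.70, and of −5.67 without activated replicate 2. *Ccr6*, the receptor that leads type 17 cells to CCL20, counted 5952, 10208 and 4836 against 1404 and 1139 (adjusted p = 0.0044, and 0.0543 without activated replicate 2, by edgeR). The activated libraries lay below all resting libraries in each of these genes, and resting replicate 3 was the lowest of its group. *Maf* and *Irf4*, factors that type 17 cells share with other effector cells, counted 2934, 4235 and 2249 against 1461 and 1445 and 3977, 5651 and 3669.7 against 2211 and 2166, with adjusted p = 0.0255 and 0.0136 over all libraries and between 0.0980 and 0.149 without either activated library by edgeR.

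Type 1 helper cells depend on T-bet and IL-12 and make interferon-γ. Of 24 type 1 genes 8 rose and 3 fell (5 and 0, and 5 and 1, without activated replicate 1 and 2). *Tbx21*, the gene of T-bet, counted 189, 199 and 287 in the resting and 2123 and 1746 in the activated libraries (log2 fold change 3.10, standard error 0.21, adjusted p = 0.000465 by edgeR). *Cxcr3*, the chemokine receptor that leads type 1 cells to inflamed tissue, counted 219, 366 and 454 in the resting and 3746 and 3612 in the activated libraries (log2 fold change 3.41, standard error 0.27, adjusted p = 0.000735 by edgeR), and *Il12rb2*, of the IL-12 receptor, 41.0, 77.5 and 67.5 against 508 and 535. *Ifng* itself counted 295, 216 and 118 against 525 and 384, with no overlap, and its log2 fold change of 1.11 did not pass the test (adjusted p = 0.0711 by edgeR). Of 23 cytotoxic genes 10 rose and 1 fell (4 and 0 without activated replicate 1 or 2). *Nkg7*, of cytotoxic granules, counted 127, 165 and 221 against 3250.2 and 3074 and *Serpinb9*, which shields cells from granzyme B, 461, 599 and 722 against 1469.6 and 1736. *Gzmb*, the gene of granzyme B, counted 1321, 456 and 411 against 4114 and 5462, with resting replicate 1 above the other two, and its rise by 2.72 on the log2 scale (3.47 without resting replicate 1) had an adjusted p of 0.0126 over all libraries and of 0.0635 and 0.0901 without activated replicate 1 and 2 by edgeR. Granzymes are close paralogs whose shared reads were not separated. *Gzma* per kilobase of exon reached 26.1 CPM in activated “wannabes” and *Gzmb* 112.

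Type 2 helper cells depend on GATA3 and make IL-4, IL-5 and IL-13. Of 13 type 2 genes 7 rose and 1 fell (3 and 4 rose, and 0 fell, without activated replicate 1 and 2). *Gata3* counted 6164, 6524 and 6351 in the resting and 14052 and 14332 in the activated libraries (log2 fold change 1.16, standard error 0.07, adjusted p = 0.000334 by edgeR). *Il1rl1*, the receptor of IL-33, counted 21.0, 178 and 122 against 2187 and 2014 and rose by 4.29 on the log2 scale. *Pparg*, a lipid-sensing nuclear receptor, counted 3.16, 9.17 and 2.08 against 139.9 and 78.3 (adjusted p = 0.00427, and 0.0569 without activated replicate 1, by edgeR), with a log2 fold change of 4.46 over all libraries and of 5.32 without resting replicate 2. *Il4* counted 418, 704 and 304 against 1186 and 1318 (log2 fold change 1.40, adjusted p = 0.0260, and between 0.0563 and 0.149 without resting replicate 1 or either activated library, by edgeR), while *Il5* and *Il13* stayed at 22.4 or below in every library and were not tested. Of 19 follicular helper genes 6 rose and 4 fell (0 or 1 and 2 without activated replicate 1 or 2). *Angptl2*, a secreted glycoprotein, fell from 4202, 5741 and 4947 to 985 and 946, and *Pdcd1*, the gene of PD-1, counted 3564, 3695 and 3798 against 3389 and 3455 and did not pass the test. Among 20 cytokine and chemokine genes 10 rose and 1 fell, the last being *Ccl20*. *Lif*, of the IL-6 family, counted 162, 183 and 239 against 813 and 1006 and *Ccl5*, which draws T cells and monocytes, 3.16, 9.17 and 5.19 against 122 and 100.2. *Il3* was at 0 in all resting libraries and at 22.7 and 73.5 in the activated, which is at least 15.5-fold higher, taking 3 counts per library as the floor (adjusted p = 0.0165, and 0.0516 and 0.112 without activated replicate 1 and 2, by edgeR). *Il3* was at least 23.6-fold higher without activated replicate 1 and at least 7.29-fold higher without activated replicate 2. Without activated replicate 1 or 2 this list had 3 or 4 rises.

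Type I interferon and interferon-γ switch on overlapping genes, through ISRE elements and GAS elements. The Ifitm genes named here lie together on chromosome 7, code for small membrane proteins that restrict viral entry and gave 2 of the 10 largest rises. Of 5 tested, 4 rose and 0 fell (3 rose without activated replicate 1 or 2). *Ifitm3* counted 82.0, 145 and 55.1 in the resting and 1157 and 1133 in the activated libraries (log2 fold change 3.60, standard error 0.35, adjusted p = 0.00134 by edgeR), beside *Ifitm2* and *Ifitm1* given above. Their sequences are alike, and reads that fit several of them may be split uncertainly. The promoter windows of *Ifitm2* and *Ifitm3* are shown, from RefSeq (GRCm38.p6) and in the same frame as above, with matches on either strand to a form of the ISRE, GAAA followed after any 2 bases by GAAA, in capitals.
Ifitm2 (chr7:140955912-140956211, minus strand): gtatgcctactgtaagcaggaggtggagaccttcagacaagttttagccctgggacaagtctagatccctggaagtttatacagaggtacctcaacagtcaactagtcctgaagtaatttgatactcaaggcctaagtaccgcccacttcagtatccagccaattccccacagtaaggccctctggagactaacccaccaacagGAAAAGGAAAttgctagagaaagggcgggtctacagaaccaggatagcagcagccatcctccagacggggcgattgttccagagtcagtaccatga
Ifitm3 (chr7:141010695-141010994, minus strand): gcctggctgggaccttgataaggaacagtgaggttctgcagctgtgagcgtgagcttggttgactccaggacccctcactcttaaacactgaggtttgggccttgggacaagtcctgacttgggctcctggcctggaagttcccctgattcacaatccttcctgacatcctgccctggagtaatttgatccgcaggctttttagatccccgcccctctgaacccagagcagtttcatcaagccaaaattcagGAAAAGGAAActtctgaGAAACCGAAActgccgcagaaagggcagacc
These were the 2 windows with a match among 9 of the Ifitm list (22.2%). The form stood in 23 of 43 windows of antiviral genes (53.5%) and in 3.44% of all windows.

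Of 48 interferon-stimulated antiviral genes tested, 6 rose and 2 fell (median 0.32), which is 12.5% and 4.17% beside 11.3% and 11.2% of all genes, and 0 of them were called by edgeR without activated replicate 1 or 2, against 24 rises and 1 fall without resting replicate 2. Resting replicate 2 was the highest of its group in *Isg15*, a ubiquitin-like protein, with 556, 1102 and 489 against 844 and 1090.2, and in *Irf7*, the main factor of the type I response, with 4306, 6066 and 3859.8 against 5258 and 6580.2. Neither passed the test, and both overlapped between the groups. *Oas3*, which senses double-stranded RNA, counted 733, 1509 and 775 against 2601 and 2872 (adjusted p = 0.0205, and 0.0996 and 0.124 without activated replicate 1 and 2, by edgeR). Of 26 genes of the interferon-γ response, which hold GTPases and parts of the immunoproteasome, 13 rose and 1 fell (6 and 3 rose, and 1 fell, without activated replicate 1 and 2). *Gbp11*, a guanylate-binding protein, counted 579, 766 and 704 against 1513 and 1836 and its relative *Gbp2b* 2007, 2412 and 2699 against 634 and 608, so that members of this family rose and fell. *Gbp2* counted 3379, 4385 and 4444 against 6733 and 8477 (adjusted p = 0.00944, and 0.0839 without activated replicate 2, by edgeR). Guanylate-binding proteins are close paralogs, and *Igtp*, a related GTPase, was listed at 0 in every library. Of 5 MHC class II genes 4 rose, with *Cd74*, the invariant chain, at 884, 866 and 798 in the resting and 3218 and 3457 in the activated libraries (log2 fold change 1.97, standard error 0.09, adjusted p = 0.000249 by edgeR) and *H2-Oa* at 345, 295 and 289 against 846 and 944, and 2 rose without resting replicate 1 or either activated library. *Ciita*, the master regulator of this class, counted 44.2, 41.8 and 40.5 against 42.5 and 46.8 and overlapped. B cells and antigen-presenting cells also express these genes. Their marker sums are given above, and their part was not tested.

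**Figure D3:**
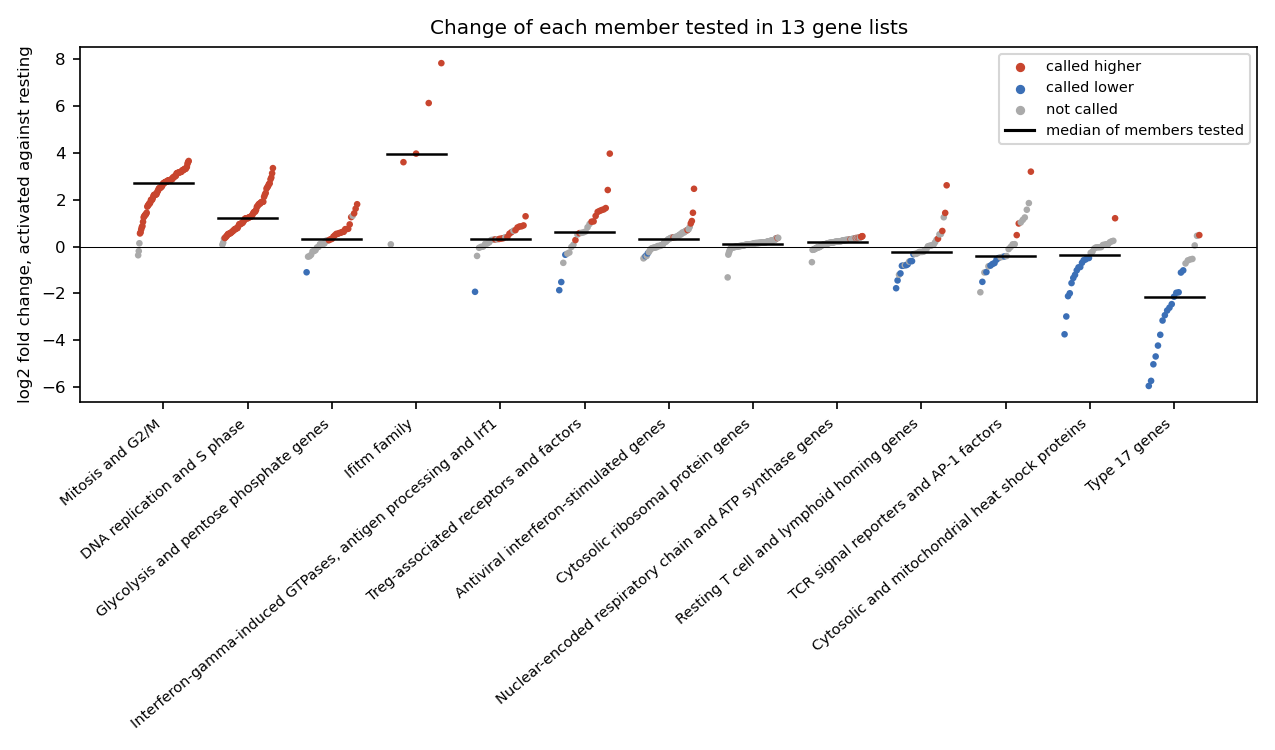
Log2 fold change, activated against resting, of each member tested in 13 gene lists, with red points called higher, blue points called lower, grey points not called and a black line at each list's median. Mitotic and S phase genes lie almost wholly above 0, with medians of 2.704 and 1.21, ribosomal proteins lie near 0 with a median of 0.11, and type 17 genes lie mostly below 0 with a median of −2.14.

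Treg-associated receptors and factors, a list that holds *Foxp3* itself, rose in part. Of 26 tested, 12 rose and 3 fell (7 and 1, and 6 and 1, without activated replicate 1 and 2). *Tnfrsf4*, the gene of OX40, counted 5844, 7089 and 6125 in the resting and 17608 and 18879 in the activated libraries (log2 fold change 1.52, standard error 0.10, adjusted p = 0.000465 by edgeR), and *Tnfrsf18*, of GITR, 5255, 5839 and 5507 in the resting and 11196 and 12113 in the activated libraries (log2 fold change 1.07, standard error 0.08, adjusted p = 0.000624 by edgeR). Replicates of these costimulatory receptors lay close together. *Ikzf2*, the transcription factor Helios, counted 3427, 2776 and 4815 against 10522 and 11539.5, *Itgae*, the integrin CD103, 1918, 1879 and 1064 against 9729 and 7556, and *Ebi3*, a subunit of IL-27 and IL-35, 88.4, 116 and 60.3 against 1418 and 1354, which is a rise by 3.97 on the log2 scale. *Lrrc32*, which presents latent TGF-β, counted 3771, 2479 and 4442 against 9164 and 11845 (adjusted p = 0.00675, and 0.0678 without activated replicate 2, by edgeR). *Nt5e*, the ectoenzyme CD73 that makes adenosine, fell from 38347, 46348 and 35132 to 11484 and 10456 (log2 fold change −1.86, standard error 0.13, adjusted p = 0.000566 by edgeR). *Ctla4* counted 19943, 24989 and 17556 against 14822 and 18977 and overlapped, and *Icos* counted 15688, 19258 and 11014 against 22502 and 23472, without overlap but short of the test (adjusted p = 0.0922 by edgeR).

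Of 31 genes of the TNF receptor superfamily and its ligands 5 rose (16.1%) and 6 fell (19.4%), beside 11.3% and 11.2% of all genes, among them *Tnfrsf13b*, the TACI receptor, which fell from 1596, 1966 and 1559.5 to 652 and 716. Of 26 CD28 family and coinhibitory receptors 8 rose and 6 fell (2 and 3, and 0 and 3, without activated replicate 1 and 2, by edgeR). *Cd28* counted 20009, 21583 and 20324 in the resting and 11513 and 11535 in the activated libraries (log2 fold change −0.84, standard error 0.07, adjusted p = 0.000871 by edgeR), and *Lag3*, an inhibitory receptor for MHC class II, 2764, 3613 and 2174 in the resting and 559 and 580.4 in the activated libraries (log2 fold change −2.32, standard error 0.22, adjusted p = 0.00126 by edgeR). The TNF list had 3 rises and 1 fall without activated replicate 1 and 2 rises and 3 falls without activated replicate 2. Of 8 galectins and secreted suppressor genes 3 rose and 1 fell (1 and 0 without activated replicate 1 or 2, by edgeR). *Lgals3* counted 828, 1272 and 406 against 3233 and 3119.7 (log2 fold change 1.93, adjusted p = 0.0193, and 0.109 and 0.102 without activated replicate 1 and 2, by edgeR), and *Ebi3* was the member that rose in every fit. Of 22 genes of the IL-2 receptor and STAT5 pathway 9 rose and 1 fell (3 and 0, and 1 and 0, without activated replicate 1 and 2, by edgeR). *Cish*, a STAT5 target that limits cytokine signals, counted 6593, 8009 and 6718 against 11079 and 11845 (adjusted p = 0.00639, and 0.0668 without activated replicate 2, by edgeR). Of 16 genes around IL-10, 2 rose and 5 fell (1 and 1 without activated replicate 1 or 2). *Il10* counted 1299, 1849.8 and 1183 against 584 and 924 (log2 fold change −0.94, adjusted p = 0.0477, and between 0.0641 and 0.237 without resting replicate 1 or 2 or either activated library, by edgeR). *Ikzf3*, the transcription factor Aiolos, fell from 14022, 14418 and 10294 to 4821 and 4716 in every fit, in the opposite direction to *Ikzf2* of the same family. The Id, E and Ikaros proteins had 1 rise and 2 falls among 11 tested (1 and 1 without activated replicate 1 or 2).

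Rolling on inflamed vessels needs selectin ligands, which *Fut7* and *Gcnt1* build by adding fucose and branching the glycan core. *Fut7* counted 139, 205 and 124 in the resting and 2462 and 2139 in the activated libraries (log2 fold change 3.88, standard error 0.22, adjusted p = 0.000291 by edgeR) and *Gcnt1* 384, 230.3 and 264 in the resting and 2625 and 2623 in the activated libraries (log2 fold change 3.16, standard error 0.21, adjusted p = 0.000465 by edgeR). Replicates of both genes lay far closer to each other than the groups did. *B4galt5*, a galactosyltransferase, counted 209, 210.0 and 220.3 against 628 and 599, and *Galnt3*, which starts O-glycans, 1.05, 0 and 0 against 84.1 and 94.5, with a ratio of 258 (95% exact interval of the counts 45.8 to 10260.0). Without resting replicate 1, *Galnt3* was at 0 in the resting group and at least 28.9-fold higher in the activated. *Selplg*, the protein that carries these sugars, counted 32688, 38469 and 34120.3 against 42370.1 and 40152 and did not pass the test. Of 14 genes of this list 4 rose and 1 fell, the same count without each activated library. Of 20 integrin chains 5 rose and 4 fell (5 and 2, and 5 and 1, without activated replicate 1 and 2). *Itgb1*, the chain that pairs to receptors for collagen, laminin and fibronectin, counted 6463, 8892 and 9069 in the resting and 60907 and 59636 in the activated libraries (log2 fold change 2.89, standard error 0.15, adjusted p = 0.000273 by edgeR), while *Itga4*, a chain of VLA-4, fell from 11778, 12541 and 11825 to 4039 and 3932. Of 23 receptors for chemokines and sphingosine phosphate 4 rose and 6 fell (2 and 1, and 3 and 2, without activated replicate 1 and 2). *Ccr10*, a receptor for skin and mucosal chemokines, counted 1.05, 6.12 and 10.4 against 142 and 111 (adjusted p = 0.0047, and 0.0555 without activated replicate 1, by edgeR), with a log2 fold change of 4.40 over all libraries and of 5.08 without resting replicate 3. *Ackr3*, a scavenger of CXCL12, counted 26.3, 120.3 and 44.7 in the resting libraries and was at 0 in both activated libraries, which is at least 22.4-fold lower, taking 3 counts per library as the floor (adjusted p = 0.0163, and 0.0821 and 0.0820 without activated replicate 1 and 2, by edgeR). Without resting replicate 2, *Ackr3* was at least 12.4-fold lower.

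Of 36 genes of resting and lymphoid homing T cells tested, 4 rose and 10 fell (0 and 4 without activated replicate 1 or 2), with a median of −0.23. *Il7r*, the IL-7 receptor of resting cells, counted 11919.5, 15238 and 12052 against 11984 and 10309 and overlapped. *Tsc22d3*, a target of glucocorticoids, fell from 27089, 25431 and 32115 to 9340.3 and 11347, and *Arrb1*, an arrestin, from 1830.2, 2069 and 1792 to 494 and 610.0. *Satb1*, a chromatin organizer, counted 14858, 7404 and 11321 against 27589 and 33007 (adjusted p = 0.0127, and 0.0679 and 0.103 without activated replicate 1 and 2, by edgeR) and *Bach2*, a repressor that keeps cells resting, 5014, 3724 and 5048 against 2745 and 2687 (adjusted p = 0.0149, and 0.112 and 0.118 without them). *Klf2*, which keeps T cells in circulation, counted 11872, 3257 and 2877 against 11863 and 16700.2, with resting replicate 1 at the level of the activated libraries, and did not pass the test. *Runx2*, of the Runx family, counted 582, 861 and 408 against 2166 and 2367 (adjusted p = 0.00605, and 0.0535 without activated replicate 2, by edgeR), and 2 of 9 genes of its list rose and 2 fell (1 and 0, and 0 and 0, without activated replicate 1 and 2, by edgeR).

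Dividing T cells are known to raise their use of glucose. Of 35 genes of glycolysis and the pentose phosphate path 19 rose and 1 fell (9 and 6 rose, and 0 fell, without activated replicate 1 and 2). *Ldha*, which makes lactate, counted 32514, 37587 and 34636 in the resting and 52242 and 55828 in the activated libraries (log2 fold change 0.63, standard error 0.08, adjusted p = 0.00389 by edgeR), *Tpi1* 3215, 4215 and 3115 against 8009 and 8793 and the lactate exporter *Slc16a3* 414, 399.5 and 389 against 1216 and 1244. Rises were mostly below 2-fold, and the median over all 35 genes tested was 0.33 on the log2 scale. *Epas1*, the hypoxia-inducible factor HIF-2α, counted 74.7, 238 and 106 in the resting and 2926 and 2797 in the activated libraries (log2 fold change 4.35, standard error 0.43, adjusted p = 0.00134 by edgeR), and its log2 fold change was 4.98 without resting replicate 2. Its list of 23 hypoxia genes had 6 rises and 3 falls, and 1 rise and 0 falls without activated replicate 1 or 2. Of 29 genes of nucleotide and one-carbon synthesis 11 rose and 2 fell (5 and 0, and 4 and 0, without activated replicate 1 and 2, by edgeR). *Psat1* and *Phgdh*, of serine synthesis, counted 1172, 1367 and 1245 against 3271 and 3562 and 2632, 2963 and 3197 against 5528 and 5720.1, and *Shmt1* 736, 593 and 782 against 1508 and 1701. Of 21 amino acid transporters 4 rose and 4 fell (1 and 0 without activated replicate 1 or 2, by edgeR), with *Slc7a5*, the large neutral amino acid transporter, at 1726, 1388 and 1518 against 3216 and 3037.

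Respiration and ribosomes supply a growing cell. Of 78 respiratory chain and ATP synthase genes 7 rose and 0 fell, with a median of 0.21, and this count was 28 without resting replicate 2 and 0 by edgeR without activated replicate 1 or 2. Of 82 ribosomal proteins 1 rose and 0 fell, and 7 rose without resting replicate 2 and 0 without activated replicate 1 or 2, by edgeR. Of 33 ribosome biogenesis genes 3 rose and 0 fell (0 by edgeR without activated replicate 1 or 2). *Myc*, which drives both, counted 7664, 7363 and 10076 against 8798 and 10117 and overlapped. Over all libraries the shares of these lists lie below the 22.5% of all genes, but without resting replicate 2 the respiratory chain stands at 35.9%, against 24.7% of all genes in that fit.

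Lipid droplets store fatty acids that mitochondria can burn. Of 32 genes of lipid droplets and fatty acid oxidation 6 rose and 3 fell (0 or 1 and 2 without activated replicate 1 or 2). Besides *Plin2*, the fatty acid translocase *Cd36* fell from 127, 135 and 76.9 to 0 and 5.73, with a log2 fold change of −5.25 over all libraries and of −4.27 without activated replicate 1. Without activated replicate 2, which leaves a library at 0, *Cd36* was at least 39.8-fold lower. Its adjusted p by edgeR was 0.00792, and 0.123 in a fit over all 13 libraries. Of 35 genes of sterol and fatty acid synthesis 3 rose and 0 fell (2 and 0 without activated replicate 1 or 2, by edgeR). *Fads2*, a desaturase, counted 4.21, 0 and 3.12 against 108 and 129 (log2 fold change 5.54, and 6.16 without resting replicate 1), and *Fasn*, the fatty acid synthase, 3114, 2832 and 2938 against 4544 and 4044 (adjusted p = 0.00846, and 0.0976 without activated replicate 1, by edgeR). Of 20 nuclear receptors and *Ahr* 2 rose and 7 fell (1 and 8, and 2 and 7, without activated replicate 1 and 2), with *Thra*, the thyroid hormone receptor, at 819, 1097 and 679 against 111 and 125, *Vdr*, the vitamin D receptor, at 2326, 3125 and 2201 against 1063 and 1039.6 and *Nr3c1*, the glucocorticoid receptor, at 5963, 5747 and 6468 against 3465 and 3688. Of 17 receptors for lipid mediators and histamine 4 rose and 4 fell (2 and 0, and 3 and 1, without activated replicate 1 and 2). *Ptgir*, the prostacyclin receptor, counted 496, 286 and 528 against 2009 and 1554.

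Early genes of T cell receptor signalling are switched on soon after stimulation and report recent signals. Of 26 such reporters and AP-1 factors 3 rose and 8 fell (0 and 4 without activated replicate 1 or 2), with a median of −0.41. *Jun* counted 21085, 24462 and 16928 in the resting and 8279.9 and 6366 in the activated libraries (log2 fold change −1.51, standard error 0.19, adjusted p = 0.00308 by edgeR), and *Fos* 11573, 12761 and 11849.6 against 7304 and 4029. *Egr2* counted 4084, 4401 and 3674 against 2975 and 2521 (adjusted p = 0.0184, and 0.0591 and 0.136 without activated replicate 1 and 2, by edgeR). *Tec*, a kinase near the receptor, fell from 1607, 1731 and 1359 to 514 and 667, and its list of 25 receptor complex and kinase genes had 1 rise and 5 falls (0 and 1 without activated replicate 1 or 2). *Malt1*, a protease that links the receptor to NF-κB, counted 10777, 12138 and 9016 in the resting and 4814 and 4883 in the activated libraries (log2 fold change −1.13, standard error 0.13, adjusted p = 0.00245 by edgeR), in a list of 25 NF-κB genes with 2 rises and 4 falls (0 and 1 without activated replicate 1 or 2, by edgeR). Of 16 ubiquitin ligases and other brakes on activation 4 rose and 2 fell (2 and 0, and 0 and 0, without activated replicate 1 and 2, by edgeR).

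Heat shock proteins fold and refold other proteins. Of 30 cytosolic and mitochondrial heat shock proteins 15 fell and 1 rose (median −0.38), and 8 and 9 fell without activated replicate 1 and 2. *Hspa8*, the constitutive HSC70, counted 41594, 39583 and 49042 in the resting and 17442 and 20076 in the activated libraries (log2 fold change −1.21, standard error 0.12, adjusted p = 0.00134 by edgeR), *Hsph1*, an exchange factor of HSP70, 9958, 7635 and 11860.0 against 2414 and 2507 and *Dnajb4*, a cochaperone, 1067, 689 and 969 against 211 and 207. *Hspa1a* and *Hspa1b*, the inducible HSP70 genes, counted 234, 308 and 409 against 52.9 and 26.7 and 499, 902 and 1075 against 59.5 and 63.0. These are near-identical, and their shared reads may be split uncertainly. Of 32 genes of the unfolded protein and integrated stress responses 2 rose and 6 fell (0 and 1, and 0 and 0, without activated replicate 1 and 2, by edgeR), and *Hspa5*, the chaperone BiP, counted 35334, 36793 and 33451 against 31812 and 34430.5 and overlapped. Of 22 sestrins and regulators of mTORC1 2 rose and 7 fell (1 and 1 without activated replicate 1 or 2). *Sesn1*, which restrains mTORC1, counted 7187, 7001 and 8377 in the resting and 1812 and 1950.3 in the activated libraries (log2 fold change −2.0, standard error 0.11, adjusted p = 0.000273 by edgeR), and *Gatsl3*, an arginine sensor, rose from 998, 965 and 1013 to 1941 and 2068. Of 16 p53 targets 2 rose and 3 fell (2 and 2, and 2 and 3, without activated replicate 1 and 2), and of 16 BCL-2 family genes 2 rose and 0 fell (0 and 0, and 0 and 1, without activated replicate 1 and 2, by edgeR). *Bcl2l1*, the survival factor BCL-XL, counted 1332, 1839.6 and 1652 against 3063 and 2929.8 (adjusted p = 0.00718, and 0.0656 and 0.0546 without activated replicate 1 and 2, by edgeR).

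Of 16 genes of the extracellular nucleotide pathway 3 rose and 6 fell (2 and 2, and 1 and 3, without activated replicate 1 and 2). *Cd38*, which breaks down NAD, fell from 2113, 2392 and 1409 to 544 and 634 (adjusted p = 0.0043, and 0.0565 without activated replicate 1, by edgeR), in the same direction as *Nt5e*. Of 23 genes of TGF-β activation and BMP signals 2 rose and 7 fell (2 and 3, and 1 and 3, without activated replicate 1 and 2). *Bmp7*, a bone morphogenetic protein, counted 228, 87.7 and 192 against 1045 and 1146 and *Tgfbr2*, the TGF-β receptor, 16074, 15804 and 17509 against 8848 and 9535. Of 20 metalloproteases and secretases 3 rose and 3 fell (1 and 3, and 2 and 2, without activated replicate 1 and 2), among them *Bace2*, *Mmp10* and *Adam12*, a membrane metalloprotease that went from 1685, 2310.5 and 1316 to 146 and 136 (adjusted p = 0.000630, and 0.102 in a fit over all 13 libraries, by edgeR). *Mmp9* fell from 222, 235 and 188 to 20.8 and 52.5 (log2 fold change −2.55, and −3.37 without activated replicate 2). Of 14 S100 proteins and annexins 6 rose and 0 fell (1 rose without activated replicate 1 or 2), with *Anxa2*, a membrane-binding protein, at 3365, 4425 and 3387 against 7616 and 7255 (adjusted p = 0.00394, and 0.0623 in a fit over all 13 libraries, by edgeR).

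Some counts of called members depended on a resting library too. Among the genes around IL-10, 2 rose and 8 fell without resting replicate 3. Without resting replicate 1, 5 rose and 6 fell among the CD28 family and coinhibitory receptors. In that fit 1 ribosomal protein rose and 1 fell. Without resting replicate 1 there were 1 rise and 2 falls among the gate genes, 5 rises and 0 falls among the type 2 genes, 3 rises and 2 falls among the follicular helper genes, 5 rises and 0 falls among the antiviral genes, 4 rises and 0 falls among the respiratory chain, 2 rises and 3 falls among the stress response genes, 3 rises and 0 falls among the S100 proteins and annexins, 1 rise and 3 falls among the mTORC1 regulators, 0 rises and 0 falls among the granulocyte, mast cell and basophil markers and 0 rises and 0 falls among the NK, CD8 and γδ T cell markers. Without resting replicate 2 there were 5 rises and 0 falls among the sterol and fatty acid synthesis genes, 3 rises and 1 fall among the BCL-2 family genes and 0 rises and 0 falls among the granulocyte, mast cell and basophil markers. Without resting replicate 3 there were 5 rises and 0 falls among the antiviral genes, 2 rises and 0 falls among the respiratory chain, 2 rises and 2 falls among the BCL-2 family genes and 3 rises and 0 falls among the S100 proteins and annexins. In a fit over all 13 libraries, which takes its spread from all 5 groups, 28 of the 158 genes named here that were called over the 5 libraries lost their call, at an adjusted p between 0.0512 and 0.373 by edgeR. They were *Ackr3*, *Adam12*, *Anxa2*, *Cd36*, *Egr2*, *Fads2*, *Fam20a*, *Ffar4*, *Fos*, *Foxp3*, *Gbp2*, *Hspa1a*, *Hspa1b*, *Il10*, *Il23r*, *Il3*, *Il4*, *Jun*, *Maf*, *Miat*, *Mmp10*, *Mmp9*, *Mstn*, *Oas3*, *Pcna*, *Pid1*, *Slc7a5* and *Vdr*.

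The change of “wannabes” was then set against that of Treg cells in the male mice of the series. There, rescued Treg cells from sick Foxp3LSL/yCd4creERT2 males stand against control Treg cells from healthy Foxp3DTR-GFP/yCd4creERT2 males at day 21, with 3 libraries each. Both groups were given 4-hydroxytamoxifen on postnatal day 14, which restored Foxp3 from the LSL allele. The labels do not name the columns of the male table. Those headed GFP were taken as rescued Treg cells from the sort in the study's methods and those headed DTR as control from the genotype, and the direction of each change of Treg cells rests on this. Sex, age, allele and experiment differ from the females and cannot be told apart from the cell type. The 2 comparisons share no library. A difference between the changes was called by edgeR for 233 of 15201 genes (1.53%), with 111 where the change of “wannabes” was higher and 122 where it was lower. The count was 139 and 144 without resting replicate 1 and 2 and 49 and 44 without activated replicate 1 and 2. Of these, 19 were called in opposite directions in the separate fits and had a mean over 100 in both experiments, 3 higher and 16 lower in activated “wannabes”. The mean of the male experiment is over its 8 libraries, 2 of them “wannabes”. Over the 6 Treg libraries alone, a choice made after the data were seen, 18 of the 19 passed. The one that did not was *Il21*, with a mean of 35.7 in the Treg and 136 in all male libraries. *Malt1* fell in “wannabes”, as given above, and counted 2793, 2640.2 and 2466 in control and 9824, 6378 and 7068 in rescued Treg cells. The change differed by −2.71 (adjusted p = 0.000638 by edgeR). *Il21* counted 5.36, 0.912 and 0 in control and 55.7, 29.8 and 122 in rescued Treg cells, against its fall in “wannabes”, a difference of −7.82 (adjusted p = 0.00111 by edgeR, and −9.63 without control Treg replicate 1), and *Vdr* 149, 48.3 and 16.98 in control and 469.6, 402 and 623 in rescued Treg cells, a difference of −4.12 (adjusted p = 0.0136, and 0.0961 and 0.0991 without activated replicate 1 and 2, by edgeR). That of *Vdr* was −5.22 without control Treg replicate 1. *Foxp3* counted 5479, 7061 and 8264 in control and 28381, 29816 and 36405 in rescued Treg cells, and *Il10* 494, 428 and 332 in control and 2114, 2689 and 2816 in rescued Treg cells, both against a fall in “wannabes” whose call was lost with several single libraries left out. With 1 library left out the fall of *Foxp3* lay between −0.43 and −0.28 on the log2 scale and that of *Il10* between −1.32 and −0.65. A level is read against its own experiment, since each was scaled on its own.

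**Figure D4:**
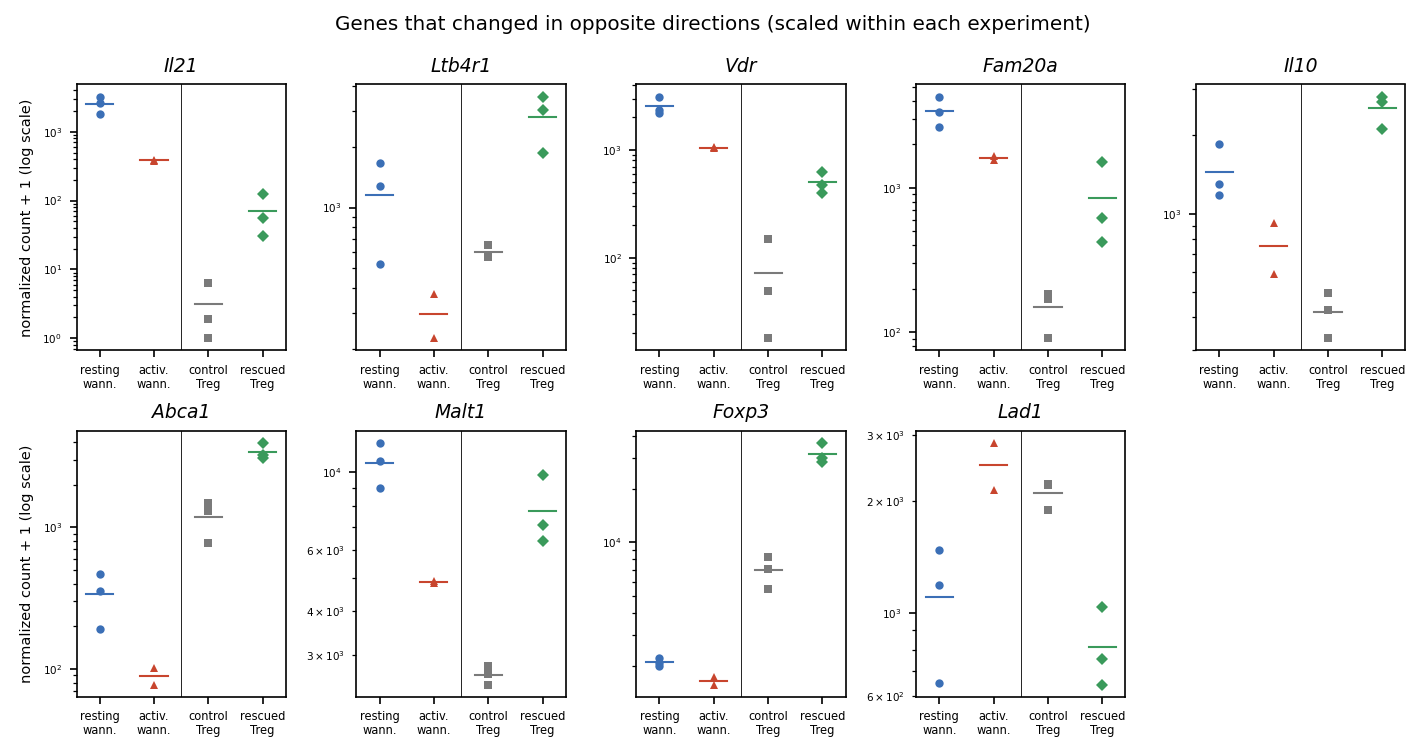
Normalized count plus 1 (log axis, scaled within each experiment) of 9 genes that changed in opposite directions, in 3 resting and 2 activated “wannabe” libraries and in 3 control and 3 rescued Treg libraries, with a line at each group's mean. In 8 of them activated “wannabes” lie below resting and rescued Treg cells above control Treg cells, and *Lad1* goes the other way.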

How the data were processed

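Sorted T cells were measured by bulk RNA-seq (SMART-Seq v4 amplification, paired-end reads). The authors aligned the reads with STAR (2.7.3a in the submitters' processing notes) to GRCm38, refined the alignments locally and assigned reads to genes, so the deposited table holds raw counts. The annotation and the strand setting are not given in the sources used here, so overlapping genes on opposite strands cannot be told apart. Of 24421 entries, 4 without a gene name (0.006% to 0.0068% of counts) were dropped. The 5 female libraries were fitted alone with edgeR 4.0.16 (R 4.3.3): filterByExpr, TMM, quasi-likelihood test and Benjamini-Hochberg adjustment, with genes called at an adjusted p under 0.05. The difference between the changes was a contrast over all 13 libraries. Genes were named by a rule: the markers given for the comparison, the 10 largest rises and falls among called genes with a mean over 100 and no overlap, and from each of 58 lists its key genes and up to 4 called members. Members and lists were chosen with earlier results of these data known, so counts over a list are descriptions. The alternatives were DESeq2 1.42.0, other scalings and filters, a replicate block, a fit over all 13 libraries and each library left out. The scripts were tested on simulated counts. Exon lengths and positions came from GENCODE M21 (96.9% of symbols matched). Results on a few genes are not reported here. A floor of 3 counts was used for genes at 0, and intervals and floors cover counting error only.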

Additional observations from a re-analysis of the deposited data

Results flagged for a closer look

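In 19 genes with a mean over 100 in both experiments (over all male libraries, “wannabes” included), the change of activated against resting “wannabes” differed from the change of rescued against control Treg cells by edgeR's test of the difference, while each change was called in the opposite direction. The 9 given here are among those with the largest absolute difference. *Il21* had a mean of 35.7 over the 6 Treg libraries alone and did not pass with these only, while the other 18 did. Values are the change of “wannabes” minus that of Treg cells on the log2 scale. The difference was −7.82 for *Il21*, −4.20 for *Ltb4r1*, a leukotriene B4 receptor, −4.12 for *Vdr*, −3.62 for *Fam20a*, a secreted pseudokinase, and −3.56 for *Il10*. It was −3.47 for *Abca1*, a cholesterol exporter, −2.71 for *Malt1*, −2.55 for *Foxp3* and 2.54 for *Lad1*, an anchoring filament protein. The size depended on single libraries for *Il21*, at −9.63 without control Treg replicate 1 and −7.14 without rescued Treg replicate 3, for *Vdr*, at −5.22 without control Treg replicate 1, and for *Fam20a*, at −2.91 without rescued Treg replicate 1. The *Foxp3* alleles, sex and age differ between the 2 experiments and cannot be told apart from it. The difference itself lost its call for *Vdr* (adjusted p = 0.0961 and 0.0991) and *Fam20a* (0.0861 and 0.0816) without activated replicate 1 and 2, and for *Lad1* without activated replicate 2 (0.0816), and the other 6 kept it with any library of the 4 compared groups left out, by edgeR. In the separate fit of the females, *Vdr*, *Malt1* and *Il21* were called with any library left out, and the other 6 lost their call without 1 or more libraries, with an adjusted p of 0.126 and 0.242 for *Lad1*, 0.144 and 0.106 for *Abca1*, 0.104 and 0.0849 for *Fam20a* and 0.124 and 0.209 for *Ltb4r1* without activated replicate 1 and 2 by edgeR.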

How the results depend on the processing

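Of the 158 named genes that were called, 129 were called in every setting that leaves out no library, and 0 turned their direction in any setting. The fit over all 13 libraries lost 28 of these calls, the fit with no filter those of *Foxp3*, *Il10* and *Lad1* (adjusted p = 0.0659, 0.0633 and 0.0546 by edgeR), DESeq2 that of *Mmp10* (adjusted p = 0.0739) and the replicate block that of *Foxp3* (adjusted p = 0.146 by edgeR). The log2 fold change of *Cd79a*, which was not called, was −0.01 and lay between −0.17 and 0.12 with a library left out. Leaving out a library moved the 2958 calls to between 751 and 3216 (1489 rises to 472 to 1651, 1469 falls to 275 to 1565) and the 540 calls among listed genes to between 268 and 603. The falls of type 17 genes lay between 7 and 18, the falls of heat shock genes between 8 and 15 and the rises of glycolytic genes between 6 and 19. The lower ends come from fits with a single activated library. A fit over all 13 libraries, which takes its spread from all groups, gave 869 calls, 584 higher and 285 lower, with 285 among listed genes, 40 rises in S phase, 6 falls in heat shock and 11 rises in glycolysis. DESeq2 called 3851 genes, DESeq2 size factors 2949, library totals alone 2980, no filter 2487 of 18530 and a mean over 100 2722 of 10477. Calls of the difference between the changes went from 233 to 770 with DESeq2, to 579 with limma voom with quality weights per group and to between 44 and 224 with a library left out.

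A replicate block moved the calls to 2045, 1091 higher and 954 lower. Under it *Ctla4* was called lower (log2 fold change −0.41, adjusted p = 0.0226 by edgeR). *Icos* was called higher (0.40, adjusted p = 0.0386 by edgeR), and neither was called without the block. The replicate numbers name libraries only: the deviations of libraries with the same number correlated at −0.029 and −0.017, so the block pairs nothing known to be shared.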

Other observations

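The genes in this section were chosen after their values were seen. Of 15 genes of the circadian clock looked at, all of them tested, 7 were called lower (46.7%, beside 11.2% of all genes) and 0 higher in activated “wannabes”. With 1 library left out between 4 and 7 were called lower, the fewest without activated replicate 1. The 4 given next are those called in every such fit. *Nr1d1*, a repressor of the clock, counted 2682, 3812 and 2121 against 236 and 192, its relative *Nr1d2* 4696, 4549 and 3381 against 1528 and 1611 and the output factor *Hlf* 1441, 1646 and 684 against 38.7 and 83.1. *Arntl*, the activator that drives them, counted 4085, 4579 and 3817 against 2089 and 2002. The hour of tissue collection is not given for either group in the sources used here, and its part was not tested. The log2 fold change of *Hlf* was −4.37 over all libraries and −5.02 without activated replicate 2. *Per1* counted 522, 529 and 564 against 404 and 440.1 and *Clock* 3745, 4401 and 3612 against 4085 and 4213, and neither passed the test (adjusted p = 0.101 and 0.599 by edgeR).

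Among genes outside the lists, *Ly6a*, the interferon-inducible surface protein Sca-1, rose from 1453, 1927 and 2053 to 13536 and 12414, *Cd7*, a T and NK cell glycoprotein, from 437, 322 and 575 to 4843 and 4319, and *Icosl*, the ligand of ICOS, from 39.97, 53 and 42.6 to 645 and 602. *Syk*, a kinase best known from B cells, rose from 18.9, 11.2 and 28.1 to 214 and 319 and *Tgm2*, a transglutaminase, from 38.9, 56.1 and 89.4 to 661 and 988. *Fn1*, fibronectin, counted 0, 0 and 1.04 against 199 and 116, and the ratio of activated to resting was 458 (95% exact interval of the counts 81.6 to 18130.0). Without resting replicate 3, *Fn1* was at 0 in the resting group and at least 50.8-fold higher in the activated, taking 3 counts per library as the floor. Falls took in *Prg4*, a lubricating proteoglycan, from 12645, 15374 and 8129 to 1536 and 1758, and *Mstn*, myostatin, from 2063, 2274 and 1280.0 to 168 and 153. *Ffar4*, a receptor for long-chain fatty acids, fell from 149, 259.9 and 226 to 11.3 and 10.5.

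Resting replicate 1 stood apart from the other resting libraries in a few genes. *Mcl1*, a survival factor, counted 9974, 4036 and 4380.4 against 8781 and 12001, with resting replicate 1 between the activated libraries. *Fkbp5*, a target of glucocorticoids, counted 3791, 1766 and 1798 against 9399 and 6197, with resting replicate 1 between the other resting and the activated libraries. *Mcl1* was not called over all libraries (adjusted p = 0.205 by edgeR) and was called without resting replicate 1 (adjusted p = 0.0050). *Fkbp5* was called (adjusted p = 0.0215 by edgeR), but not without activated replicate 1 or 2 (adjusted p = 0.150 and 0.0711).

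*Txnip*, a brake on glucose uptake, counted 24303, 31206 and 24364 against 13278 and 14599, and *Gm15441*, which overlaps it on the other strand, 24330.1, 31246 and 24404 against 13308 and 14616, nearly the same value in each library. The adjusted p was 0.00493 and 0.00492 over all libraries, and 0.0574 for each without activated replicate 1, by edgeR. Their reads were not told apart.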
